A study of Mus musculus with 12 samples.

Results

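The comparison described here is that of 3 retina libraries taken 2 d after induction of an Otx2 knock-out in photoreceptors (PRs) with 3 of P30 control mice. It was chosen by condition label and takes 6 of the 12 libraries of a time course whose other 6 are P34 and P38 cKO retinas. The libraries were made from full retinas, 3 mice per condition, with the libraries named below as mice 1 to 6, and the study's text states that RNA of the retinal pigmented epithelium (RPE) was included. A figure legend of the study gives n = 2 for the P30 controls in its expression profiles, while its methods give 3 mice per condition. The cKO mice (numbered 4 to 6) were killed at P32. They carried Crx-CreERT2, a tamoxifen-activated Cre recombinase driven in PRs, on an Otx2 flox/flox background and had received a single tamoxifen injection at P30. The methods give a 129/SV background for all mouse strains of the study. The controls (numbered 1 to 3) were P30 mice labelled only as control, with a source name that also mentions Crx, and the methods place them at 0 d after tamoxifen. Age, time since the injection and the deletion therefore differed together between the groups and cannot be told apart. All mice were killed at the same hour of the day. In bulk RNA, fewer cells of a type and less RNA per cell cannot be told apart either.

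OTX2 is a homeodomain transcription factor that, with its relative CRX, binds a short bicoid-type DNA core and keeps PR genes expressed, and it is also made by bipolar cells and by the RPE, where it acts on pigment genes. PRs turn light into a fall of cyclic GMP through opsins, transducin and phosphodiesterase. Retinal neurons also answer changes in activity within minutes to hours by transcribing immediate early genes, whose products are mostly transcription factors and inhibitors of signaling.

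Library totals ranged from 31973411 to 60145034 counts on genes, and 3 counts were worth 0.0499 to 0.0938 CPM (CPM, the count of a gene scaled to a common library total). Levels below are CPM after scaling by edgeR's TMM method, and differences are on the log2 scale. The marker lists of rods (19 genes), cones (12) and bipolar cells (16) were all counted above the filter in these libraries. cKO mouse 4 stood apart. It was the sole male among the 6 mice by its counts, with 20 counts of Xist, the RNA of the inactive X chromosome, against 66803 to 114682 in the others, and 7880 counts on Y-linked genes against 5 to 12. It had the lowest position on the first principal component (−80.7, with the others from −12.4 to 41.3) and the highest share of reads with no unique position (32.2%, with the others from 24.8 to 27.2%). When genes were split into 5 classes by transcript length, the median log2 difference of mouse 4 from the P30 mean went from 0.19 in the shortest class (median length 636 bp) to −0.36 in the longest (3671 bp), while in the other 5 libraries no class was further than 0.09 from 0. Lens genes also varied within both groups: the summed level of 22 of them was 15612, 904 and 63183 CPM in P30 mice 1, 2 and 3 and 70059, 52281 and 1258 CPM in cKO mice 4, 5 and 6. P30 mouse 1 had pigment and smooth muscle levels close to those of the cKO mice, as given below. Gene lists are therefore also given without P30 mouse 1 and without cKO mouse 4 where a call or a median moved.

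**Figure D1:**
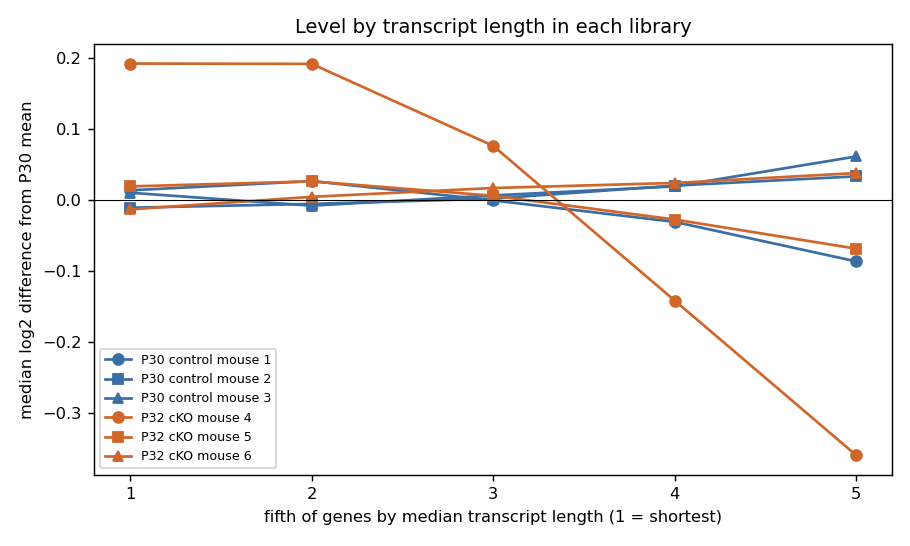
Median log2 difference of each library from the mean of the 3 P30 libraries (vertical axis) in 5 classes of the tested genes ordered by median transcript length (horizontal axis, 1 the shortest). cKO mouse 4 goes from 0.19 to −0.36 and the other 5 libraries stay within 0.09 of 0.

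Otx2 (chr14:48657677-48673819, GRCm38, minus strand), the gene targeted, was at 293, 328 and 315 CPM in P30 mice 1, 2 and 3 and at 322, 340.3 and 372 CPM in cKO mice 4, 5 and 6 (log2 fold change 0.14, SE 0.11, adjusted p = 0.703). The ranges overlapped. The recombined allele loses the second coding exon and still gives a transcript, so that this count over all exons does not check the deletion, and reads on single exons were not analysed here. The study itself reports fewer reads on the floxed exon, relative to the exon beside it, at P32 than at P30. Crx, the PR factor whose promoter drives the recombinase, was at 1174, 1193 and 1141 CPM against 1081, 1154 and 1251 CPM (log2 fold change −0.01, SE 0.13, adjusted p = 0.985).

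No gene passed the threshold of an adjusted p of 0.05 and a log2 fold change of 0.5 in size (0.0% of the 18628 genes tested in each direction, by the quasi-likelihood test of edgeR and the Benjamini-Hochberg method). The smallest adjusted p was 0.299. At an unadjusted p of 0.05 and the same fold limit, 329 genes were lower at P32 (1.77% of the genes tested) and 211 were higher (1.13%). Without the fold limit, 1050 genes had an unadjusted p of at most 0.05, which is 5.64% of all genes tested. The 3 cKO values lay below the 3 P30 values in 818 genes (4.39%) and above them in 980 (5.26%). Below, a gene is named as lower or higher when it passed the unadjusted threshold with the fold limit. None of them passed after adjustment over all genes. DESeq2 on the same 18628 genes took 17 as lower and 8 as higher at the adjusted threshold. The 8 include the Y-linked Uty and Eif2s3y, and cKO mouse 4 was the sole male. Without P30 mouse 1, edgeR's test took 19 as lower and 0 as higher, and without cKO mouse 4 it took 0 as lower and 2 as higher. Single mice also decided the size of the unadjusted counts. Without cKO mouse 6 they were 1075 lower and 736 higher, without cKO mouse 5 349 higher, without P30 mouse 2 212 lower and 122 higher and without P30 mouse 3 201 lower. Without P30 mouse 1, 583 were lower and 294 higher of 19052 genes tested, and without cKO mouse 4, 257 were lower and 83 higher of 18991. These are the shares to set beside list counts given without P30 mouse 1 or cKO mouse 4.

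Transcript length moved with these calls. From the shortest to the longest class of genes, 50, 58, 50, 35 and 18 genes were called higher and 46, 45, 66, 79 and 93 were called lower, and the median log2 fold change of a class went from 0.07 to −0.13. Without cKO mouse 4 the medians of the classes were no lower than −0.03 and no higher than 0.0020. Of the 211 genes called higher, 52 were also called without mouse 4, and of the 329 called lower, 170 were. With sex as a covariate, 82 of the 211 and 263 of the 329 remained. Among the 211, 6 are genes on the Y chromosome, which the 5 female mice lack.

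Of the 32 gene lists counted, that of immediate early genes had the largest share called higher. Of the 24 tested, 6 were higher, against 1.13% of all genes: Dusp1, Nr4a1, Fos, Egr1, Egr4 and Sik1. In 7, the 3 cKO values lay above the 3 P30 values, as in 5.26% of all genes, and in 1 they lay below them, as in 4.39%. None of the 24 was called lower, and 18 had a positive fold change. The median over the 24 was 0.23 on the log2 scale, against −0.01 over all genes tested. It was 0.20 without cKO mouse 4, where the same 6 genes were called, and 0.22 without P30 mouse 1, where 5 were. Their summed level was 301, 305 and 401 CPM in P30 mice 1, 2 and 3 and 492, 499 and 516 CPM in cKO mice 4, 5 and 6, so that the groups did not overlap.

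Dusp1 (chr17:26505590-26562128, minus strand) encodes a phosphatase that switches off MAP kinases. It had 13.1, 13.7 and 16.997 CPM at P30 and 31.6, 29.9 and 29.99 CPM at P32, with all cKO mice near 30 CPM and the controls near their lower level (log2 fold change 1.07, SE 0.21, adjusted p = 0.592). Over the 16 alternative fits its log2 fold change lay between 0.97 and 1.19, and its adjusted p between 0.00177 (DESeq2) and 1. Fos (chr12:85473890-85477273, plus strand), a subunit of the AP-1 factor, had 18.1, 18.7 and 32.7 CPM in P30 mice 1, 2 and 3 and 40.8, 51.7 and 52.5 CPM in cKO mice 4, 5 and 6 (log2 fold change 1.06, SE 0.29, adjusted p = 0.698). Its highest control was mouse 3, which was still below the lowest cKO value. Nr4a1, an orphan nuclear receptor, was at 23.9, 22.9 and 37.4 CPM against 41.5, 49.8 and 57.7 CPM (log2 fold change 0.83, SE 0.19, adjusted p = 0.698), again with P30 mouse 3 the highest control.

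Egr1, a zinc finger factor of the same response, had 12.1, 17.3 and 68.6 CPM at P30 and 86.8, 94.6 and 105 CPM at P32 (log2 fold change 1.55, SE 0.55, adjusted p = 0.698). The P30 mice were far apart, with mouse 3 close to the cKO mice, and the log2 fold change was 2.69 without P30 mouse 3 and 1.15 without P30 mouse 1, where it missed the unadjusted threshold. Egr4 was low throughout, at 0.1104, 0.141 and 0.149 CPM against 0.36, 0.233 and 0.493 CPM (adjusted p = 0.698). Sik1, a salt-inducible kinase, had 10.6, 8.64 and 13.5 CPM and 11.9, 16.6 and 19.3 CPM, and here the groups overlapped (adjusted p = 0.698). Btg2, an antiproliferative early gene named after its values were seen, as were Egr1, Egr4 and Sik1, had 85.5, 89.3 and 77.4 CPM and 105, 114 and 104 CPM. Its fold change of 0.35 (SE 0.10, adjusted p = 0.698) was under the fold limit although the groups did not overlap. The other members spread over both sides of 0, and 6 of the 24 were negative. The lowest was Fosl2, also named after its values were seen, at a log2 fold change of −0.55. It had 12.0, 10.2 and 9.51 CPM at P30 and 6.18, 7.96 and 7.47 CPM at P32 (adjusted p = 0.698), with no overlap.

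**Figure D2:**
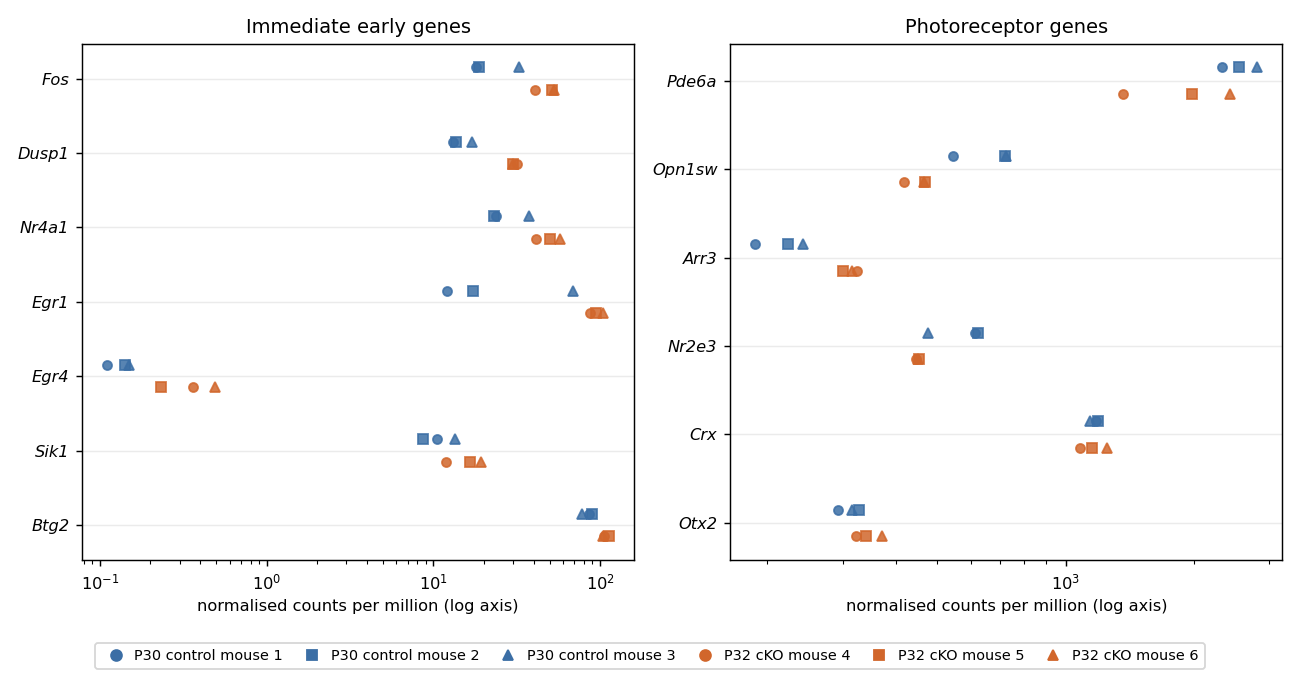
Normalised CPM on a log axis for 7 immediate early genes (left) and 6 PR genes (right), 1 point per mouse, P30 controls in blue and P32 cKO mice in orange. Of the 7 early genes drawn, all with a positive fold change, Sik1 alone has overlapping groups. Opn1sw and Nr2e3 have all cKO points below the controls and Arr3 has them above.

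The bases before the start sites of Fos and Dusp1 are shown because they are the most widely used marker of the group and its member with the smallest p. The 250 bases upstream of the start site were read from RefSeq (GRCm38.p6), with matches to TGACG, the core of the cyclic AMP response element TGACGTCA bound by CREB factors, in capitals on either strand. In Dusp1 the matches on both strands overlap in the full element. TGACG was in 17.8% of 32851 promoter windows of this length and in the windows of 19.8% of genes, and in 15 of the 20 immediate early genes with a window. The match is a description of the letters and shows no binding.
Fos chr12:85473640-85473889 plus: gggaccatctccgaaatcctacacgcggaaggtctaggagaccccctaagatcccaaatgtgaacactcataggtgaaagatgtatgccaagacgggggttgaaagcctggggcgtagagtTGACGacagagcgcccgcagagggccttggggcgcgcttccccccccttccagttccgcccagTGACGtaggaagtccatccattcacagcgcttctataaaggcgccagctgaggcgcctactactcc
Dusp1 chr17:26508473-26508722 minus: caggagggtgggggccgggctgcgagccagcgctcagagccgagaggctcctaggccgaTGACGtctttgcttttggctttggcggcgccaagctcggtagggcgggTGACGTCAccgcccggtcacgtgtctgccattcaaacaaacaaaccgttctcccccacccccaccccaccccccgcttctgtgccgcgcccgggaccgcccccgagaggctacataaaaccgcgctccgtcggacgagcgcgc

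Of the PR genes, Opn1sw was lower, Arr3 was higher, and no other was called. None of the 19 rod phototransduction genes was called in either direction, against 1.77% and 1.13% of all genes, and their median log2 fold change was −0.12. The rod members with the smallest p were Pde6a, the catalytic alpha subunit of rod phosphodiesterase, and Rgs9 and Gucy2f, which speed the recovery from light by turning off transducin and making cyclic GMP. Pde6a had 2327, 2553 and 2812 CPM and 1362, 1973 and 2429 CPM (adjusted p = 0.698), Rgs9 108, 188 and 279 CPM and 21, 94.1 and 172 CPM (adjusted p = 0.698), and Gucy2f 173, 260.3 and 262 CPM and 35.01, 135 and 243 CPM (adjusted p = 0.698). In each of the 3 genes the lowest value was that of cKO mouse 4. Without it, their log2 fold changes were −0.22, −0.52 and −0.29 in place of −0.42, −0.997 and −0.75. Without P30 mouse 1 they were −0.48, −1.28 and −0.92, and Rgs9 was then called lower, alone among the 19 (adjusted p = 0.612). Over the 16 alternative fits Pde6a lay between −0.62 and −0.22, Rgs9 between −1.73 and −0.52 and Gucy2f between −1.45 and −0.29.

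Of 12 cone genes, 1 was lower, Opn1sw, and 1 higher, Arr3, against 1.77% and 1.13% of all genes. Opn1sw (chr6:29376671-29388468, minus strand), the short-wavelength cone opsin, was at 544, 719 and 724 CPM in P30 mice 1, 2 and 3 and at 417, 469 and 465 CPM in cKO mice 4, 5 and 6 (log2 fold change −0.56, SE 0.16, adjusted p = 0.698). No cKO value reached a control value, and the log2 fold change was −0.50 without cKO mouse 4 and −0.68 without P30 mouse 1. Arr3, the cone arrestin that quenches activated opsin, was at 187, 224 and 242 CPM and 323, 301 and 316 CPM, with all cKO values above the controls (log2 fold change 0.53, SE 0.21, adjusted p = 0.698). The call was lost without cKO mouse 4 (log2 fold change 0.50) and without P30 mouse 1 (0.43). Without cKO mouse 4 the list held 1 lower and 0 higher genes, and its median of −0.08 became 0.071 without P30 mouse 2 and 0.044 without cKO mouse 5. Slc24a2, a cone sodium, calcium and potassium exchanger, had 80.4, 76.3 and 118 CPM and 50.04, 64.3 and 82.98 CPM (adjusted p = 0.698), under the fold limit at −0.48, and past it without P30 mouse 1, where it was called lower with Opn1sw (-0.56, adjusted p = 0.612).

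No PR transcription factor of the 15 tested was called in either direction, against 1.77% and 1.13% of all genes (median 0.01). Nr2e3, which represses cone genes in rods, had 614, 624 and 476 CPM in the controls and 445, 453 and 449.5 CPM in the cKO mice. The cKO values lay within a narrow range just below the controls (log2 fold change −0.35, SE 0.16, adjusted p = 0.698). Neurod2 had 10.5, 9.93 and 9.15 CPM and 16.2, 12.1 and 11.6 CPM, with no overlap and under the fold limit (log2 fold change 0.43, and 0.26 without cKO mouse 4, adjusted p = 0.698), and Mef2c had 107, 114 and 124 CPM and 83.8, 95.6 and 114 CPM. Of the 15 genes of outer segment structure and of the interphotoreceptor matrix, none was called (median −0.23, −0.12 without cKO mouse 4 and −0.39 without cKO mouse 6). Impg1 and Impg2, the matrix proteoglycans, had 345, 423 and 448 CPM against 150.3, 294 and 380.0 CPM and 400.0, 487 and 531 CPM against 283, 340.3 and 469.8 CPM, with mouse 4 the lowest in both. Impg1 had a log2 fold change of −0.56, which was −0.27 without cKO mouse 4 and −0.66 without P30 mouse 1, where it was called lower. Rp1l1, a PR axoneme protein, was also lowest in mouse 4, at 723, 821 and 821 CPM and 459, 665 and 774 CPM (adjusted p = 0.698). Prph2, a disc rim protein, had 6117, 6031 and 6152 CPM and 6216, 5681 and 6094 CPM. In the 250 bases upstream of the start site, the bicoid-type core TAATCC was found on either strand in 7 of 13 rod genes, 1 of 7 cone genes and 2 of 12 outer segment and matrix genes with a window, against the windows of 7.21% of genes and 6.25% of all windows.

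The bipolar list had 1 lower and 1 higher gene of 16, against 1.77% and 1.13% of all genes. Trpm1, the cation channel of ON bipolar cells, had 225, 370.2 and 366 CPM in the controls and 139, 236 and 240.3 CPM in the cKO mice (log2 fold change −0.64, SE 0.25, adjusted p = 0.698), with overlap through P30 mouse 1. Gng13, a G protein gamma subunit, had 77.4, 68.4 and 70.5 CPM and 169.8, 85.3 and 77.3 CPM (log2 fold change 0.62, SE 0.25, adjusted p = 0.698), where mouse 4 alone was far above the others. Neither was called without mouse 4, with log2 fold changes of −0.43 and 0.17, and both were called without P30 mouse 1, with −0.84 and 0.67. Scgn, the calcium-binding protein secretagogin, had 116, 102 and 82.6 CPM and 149.6, 122 and 107 CPM (adjusted p = 0.698).

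Of the same 32 lists, that of pigment genes had the largest share called lower. All 15 melanogenesis genes tested had a negative fold change, 11 were lower, against 1.77% of all genes, and in 6 the cKO values lay below every control, against 4.39%. Their median log2 fold change was −2.53, against −0.01 over all genes. Their summed level was 175, 1100.2 and 928 CPM in P30 mice 1, 2 and 3 and 136, 171 and 63.3 CPM in cKO mice 4, 5 and 6. The difference thus separated P30 mice 2 and 3 from the other 4, while P30 mouse 1 was just above the highest cKO mouse. Gpnmb (chr6:49036546-49070929, plus strand), a melanosomal glycoprotein, had 19.1, 184 and 164 CPM and 11.2, 16.4 and 5.47 CPM (log2 fold change −3.47, SE 0.70, adjusted p = 0.592). Mlph, which links melanosomes to the transport motor, had 3.25, 10.98 and 15.04 CPM and 1.41, 2.12 and 0.665 CPM (log2 fold change −2.80, SE 0.58, adjusted p = 0.698). Without P30 mouse 1 the adjusted p was 0.00957 for Gpnmb and 0.0489 for Mlph.

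Tyr, tyrosinase, the rate-limiting enzyme of melanin synthesis, had 4.97, 27.4 and 26.9 CPM in P30 mice 1, 2 and 3 and 2.85, 5.32 and 2.05 CPM in cKO mice 4, 5 and 6 (log2 fold change −2.53, SE 0.59, adjusted p = 0.698). Tyrp1 had 19.7, 114 and 107 CPM and 10.1, 19.3 and 5.003 CPM (log2 fold change −2.80, SE 0.66, adjusted p = 0.698), and Dct, another enzyme of the pathway, had 61.7, 390.4 and 309.5 CPM and 49.9, 56.6 and 13.97 CPM (adjusted p = 0.698). Pmel, the fibril protein of melanosomes, had 25.1, 258 and 202 CPM and 22.7, 27.99 and 7.34 CPM, and Mlana had 3.596, 27.1 and 19.4 CPM and 3.6, 2.77 and 0.567 CPM, both with P30 mouse 1 below the highest cKO mouse (Dct, Pmel and Mlana are named after their values were seen). Without cKO mouse 4 the list median was −2.42 with 10 genes lower, and without P30 mouse 1 it was −2.99 with 13 lower. Over the 16 alternative fits the median lay between −2.99 and −1.84.

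The upstream bases of Tyr and Tyrp1 are shown because their products are the central enzymes of the group. Capitals mark CATGTG, the E-box letters of the M-box bound by MITF, on either strand. It was found in 12.3% of all windows and in the windows of 13.8% of genes, and in 6 of the 11 melanogenesis genes with a window. TAATCC was in neither sequence and in 2 of the 11 windows.
Tyr chr7:87493513-87493762 minus: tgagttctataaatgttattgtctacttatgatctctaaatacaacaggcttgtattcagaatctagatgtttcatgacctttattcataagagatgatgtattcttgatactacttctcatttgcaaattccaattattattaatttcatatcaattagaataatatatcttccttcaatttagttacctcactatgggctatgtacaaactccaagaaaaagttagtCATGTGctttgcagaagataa
Tyrp1 chr4:80833963-80834212 plus: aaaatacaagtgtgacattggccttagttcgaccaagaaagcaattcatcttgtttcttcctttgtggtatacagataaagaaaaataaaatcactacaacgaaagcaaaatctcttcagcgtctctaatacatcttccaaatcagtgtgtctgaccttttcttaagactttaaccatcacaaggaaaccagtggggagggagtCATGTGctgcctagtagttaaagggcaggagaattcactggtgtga

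RPE genes other than those of pigment differed less. None of 15 was called, against 1.77% of all genes for the lower direction, although 13 had a negative fold change and 2 lay below every control (4.39% of all genes did). The median was −0.21 and was not stable, at −0.32 without P30 mouse 1, −0.40 without P30 mouse 2, 0.08 without P30 mouse 3, −0.38 without cKO mouse 5 and −0.06 without cKO mouse 6. Rpe65, the isomerase of the visual cycle, had 13.2, 5.59 and 21.5 CPM in the controls and 10.4, 20.5 and 10.1 CPM in the cKO mice (log2 fold change 0.03, SE 0.44, adjusted p = 0.985), and its highest values were in P30 mouse 3 and cKO mouse 5. The 3 members with the smallest p were Mertk, the receptor for uptake of shed outer segments, at 11.8, 11.9 and 13.97 CPM and 8.13, 10.4 and 11.4 CPM (adjusted p = 0.698), Kcnj13, a potassium channel, at 2.84, 4.06 and 7.04 CPM and 2.79, 3.39 and 1.26 CPM (adjusted p = 0.698), and Stra6, a retinol carrier receptor, at 4.83, 7.39 and 11.9 CPM and 4.17, 7.16 and 4.34 CPM (adjusted p = 0.698). The summed RPE level was 338, 256 and 493 CPM in P30 mice 1, 2 and 3 and 378, 372 and 274 CPM in cKO mice 4, 5 and 6, and P30 mouse 2, the highest for the pigment genes, was the lowest. Without P30 mouse 1, 2 RPE genes were lower, Kcnj13 and Stra6, against 583 of all 19052 genes tested in that fit.

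**Figure D3:**
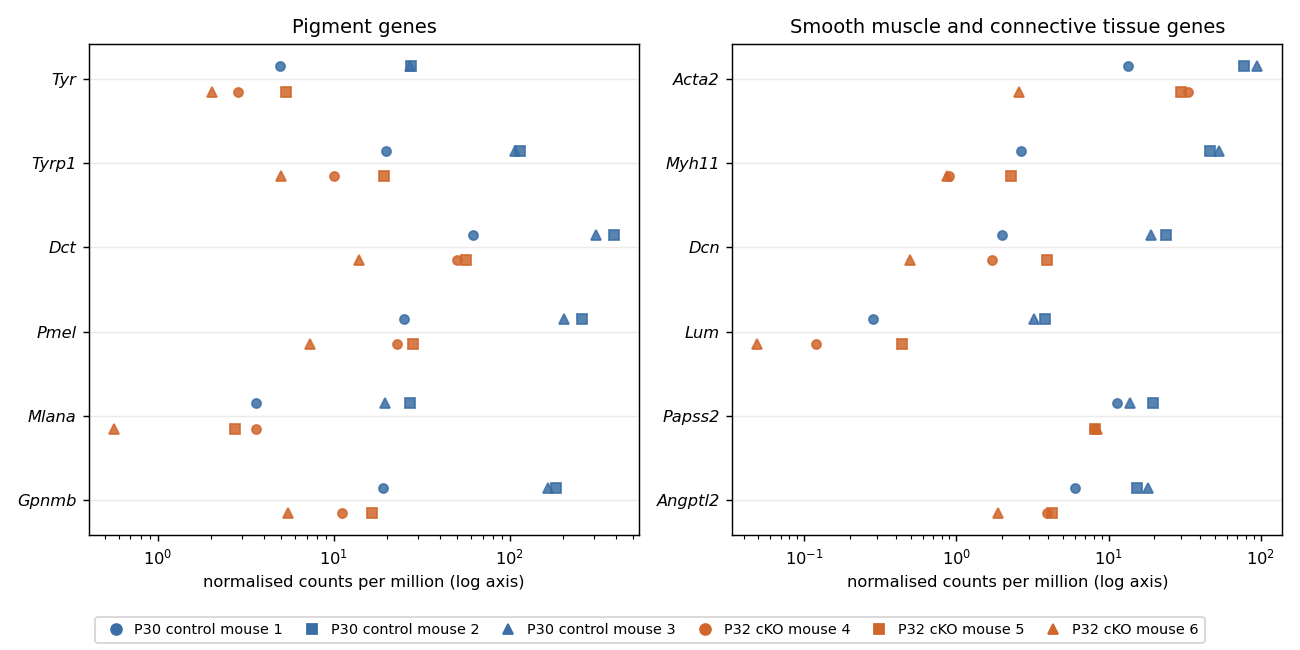
Normalised CPM on a log axis for 6 pigment genes (left) and 6 smooth muscle and connective tissue genes (right), 1 point per mouse, controls in blue and cKO mice in orange. In the pigment genes P30 mice 2 and 3 lie far to the right and P30 mouse 1 (blue circle) lies near the cKO mice.

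In smooth muscle genes too, P30 mice 2 and 3 had the highest levels. The list summed to 188, 415 and 407 CPM in P30 mice 1, 2 and 3 and to 147, 209 and 190.2 CPM in cKO mice 4, 5 and 6. All 9 genes tested had a negative fold change and 4 were lower, against 1.77% of all genes, with a median of −0.996. Myh11 (chr16:14194535-14291372, minus strand), the smooth muscle myosin heavy chain, had 2.65, 46.7 and 53.2 CPM in P30 mice 1, 2 and 3 and 0.90, 2.27 and 0.863 CPM in cKO mice 4, 5 and 6 (log2 fold change −4.66, SE 0.88, adjusted p = 0.592). P30 mouse 1 lay just above cKO mouse 5. Tagln, an actin-binding protein of smooth muscle, had 2.71, 25.1 and 20.7 CPM and 3.72, 2.404 and 1.82 CPM (adjusted p = 0.698), and Myl9, a myosin light chain, had 10.03, 28.9 and 26.98 CPM and 9.63, 7.68 and 5.08 CPM (adjusted p = 0.698). Acta2, smooth muscle actin, named after its values were seen, had 13.5, 77.9 and 95.2 CPM and 33.1, 30.1 and 2.59 CPM and was not called (adjusted p = 0.698). Without P30 mouse 1, Myh11 reached a log2 fold change of −5.21 and an adjusted p of 0.00289, Tagln an adjusted p of 0.00346 and Myl9 of 0.04302, and 7 of the 9 were called at the unadjusted threshold.

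All 16 fibroblast and extracellular matrix genes had a negative fold change and 7 were lower, against 1.77% of all genes, with a median of −0.75. Without cKO mouse 4, 5 were lower (median −0.64), and without P30 mouse 1, 8 were (median −0.93). With limma voom the median was −0.39. Matn3, matrilin-3 of the matrix, had 0.347, 7.73 and 3.804 CPM in the controls and 0.15, 0.181 and 0.0246 CPM, or 5, 7 and 1 counts, in the cKO mice (log2 fold change −5.05, SE 1.07, adjusted p = 0.698). Over the 15 alternative fits that held it, its log2 fold change lay between −5.78 and −4.09. Emilin2, an elastic fiber glycoprotein, had 0.536, 3.19 and 3.45 CPM and 0.51, 0.362 and 0.3697 CPM (log2 fold change −2.52, SE 0.56, adjusted p = 0.698). Without P30 mouse 1 the adjusted p was 0.0302 for Matn3 and 0.00346 for Emilin2. The small proteoglycans Dcn and Lum, named after their values were seen, had 1.99, 23.7 and 18.99 CPM against 1.71, 3.95 and 0.493 CPM and 0.284, 3.82 and 3.24 CPM against 0.12, 0.439 and 0.0493 CPM (adjusted p = 0.698 for both), with P30 mouse 1 within the cKO range for both. The list summed to 269, 311 and 357 CPM in the controls and 225, 290.0 and 169 CPM in the cKO mice, with overlap. Vcan, the large matrix proteoglycan versican, differed by less, at 17.9, 22.4 and 26.7 CPM and 12.2, 18.2 and 12.03 CPM (log2 fold change −0.65, SE 0.21, adjusted p = 0.698). The fibrillar collagen Col1a1 had 1.34, 4.1998 and 4.55 CPM and 1.11, 2.04 and 1.33 CPM (adjusted p = 0.698).

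Of 13 genes of the ciliary body and iris, all had a negative fold change, 6 were lower, against 1.77% of all genes, and these 6 had all cKO values below the controls, against 4.39%. The median was −0.57, with 5 lower without cKO mouse 4 (-0.61) and 6 without P30 mouse 1 (-0.65). Slc4a5, a sodium bicarbonate cotransporter of the ciliary epithelium, had 56.8, 88.7 and 76.2 CPM at P30 and 39.2, 52.9 and 45.7 CPM at P32 (log2 fold change −0.69, SE 0.17, adjusted p = 0.698). Cldn19, a tight junction claudin, had 7.74, 12.7 and 9.69 CPM and 7.23, 6.25 and 3.77 CPM (log2 fold change −0.80, SE 0.26, adjusted p = 0.698), and Mecom, a zinc finger factor, had 2.95, 4.87 and 3.63 CPM and 2.19, 2.69 and 1.602 CPM (adjusted p = 0.698). Optc, opticin of the vitreous, overlapped between the groups, at 98.97, 73.8 and 90.6 CPM and 79.3, 113 and 37.7 CPM (log2 fold change −0.20, SE 0.35, adjusted p = 0.848). Cldn19, Mecom and Optc were lowest in cKO mouse 6. Without that mouse the log2 fold change of Optc was 0.13. The summed level of the 13 was 445, 445 and 428 CPM in P30 mice 1, 2 and 3 and 408, 431 and 236 CPM in cKO mice 4, 5 and 6. The part of adjoining eye tissue in the differences of the pigment, smooth muscle, matrix and ciliary genes was not tested.

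**Figure D4:**
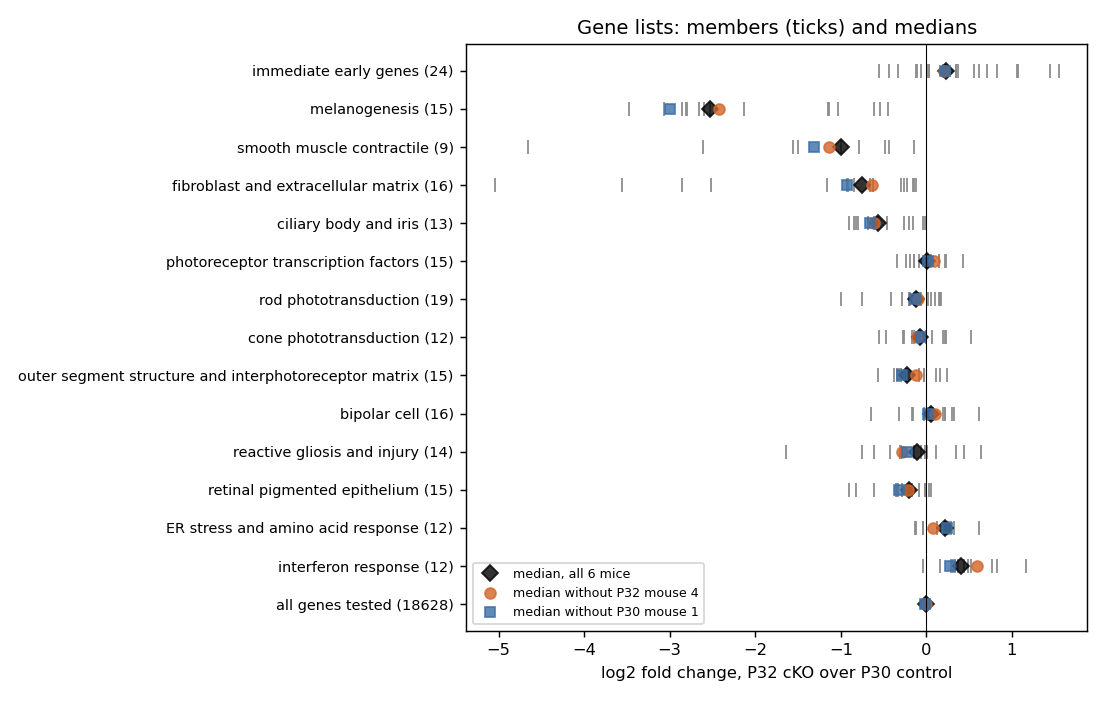
Log2 fold change of P32 cKO over P30 control for the members of 14 gene lists (gray ticks, number tested in brackets) with their medians for all 6 mice (diamonds), without cKO mouse 4 (circles) and without P30 mouse 1 (squares). Melanogenesis lies furthest to the left, and the immediate early, stress and interferon lists lie to the right of 0, with the median of all genes tested in the bottom line.

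Few genes of glia and of cell stress were called. Of 14 genes of reactive gliosis, 1 was lower and none was higher, against 1.77% and 1.13% of all genes, and without P30 mouse 1, 3 were lower, against 583 of all 19052 genes tested in that fit. A2m, a protease inhibitor, had 14.2, 20.2 and 21.6 CPM and 11.9, 13.1 and 11.6 CPM (log2 fold change −0.61, SE 0.19, adjusted p = 0.698). Gfap, the intermediate filament of reactive Müller glia and astrocytes, had 20.2, 20.1 and 45.1 CPM in P30 mice 1, 2 and 3 and 16.4, 19.1 and 15.1 CPM in cKO mice 4, 5 and 6 (log2 fold change −0.75, SE 0.37, adjusted p = 0.698). All cKO values were below the controls, and P30 mouse 3 was far above the other mice. Without it the log2 fold change was −0.26. Osmr, a cytokine receptor, had 7.71, 7.41 and 7.399 CPM and 5.25, 5.996 and 5.496 CPM (log2 fold change −0.43, adjusted p = 0.698), and Serpina3n, an acute phase gene, had 6.97, 51.97 and 45.9 CPM and 5.16, 25.1 and 3.15 CPM, widely spread in both groups (adjusted p = 0.698). In the ER stress and amino acid response list, 1 of 12 was higher, against 1.13% of all genes (median 0.22, and 0.07 without mouse 4). It was Chac1, a glutathione-degrading enzyme of this response, at 1.07, 0.868 and 1.01 CPM and 1.71, 1.63 and 1.18 CPM (log2 fold change 0.61, SE 0.22, adjusted p = 0.698). The response factor Ddit3 had 50.1, 40.7 and 37.98 CPM and 68.6, 49.2 and 43.1 CPM, highest in mouse 4 (adjusted p = 0.698). Herpud1 had 57.5, 49.97 and 56.8 CPM and 73.2, 65.6 and 57.9 CPM and Sesn2 15.96, 17.3 and 17.3 CPM and 18.8, 20.6 and 20.01 CPM, both without overlap but under the fold limit, at 0.26 and 0.24. No member of the list was called without mouse 4.

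The protein-coding genes with the smallest p in each direction, past the fold limit, with a mean of at least 1 CPM and no overlap between the groups, held a few that belong to none of these groups. Slc20a2 (chr8:22476788-22569612, plus strand), a phosphate transporter, had 46.5, 53.9 and 54.02 CPM in P30 mice 1, 2 and 3 and 35.3, 34.4 and 31.8 CPM in cKO mice 4, 5 and 6 (log2 fold change −0.61, SE 0.10, adjusted p = 0.299). Both groups were tight. Papss2, which makes the sulfate donor for proteoglycans, had 11.3, 19.6 and 13.8 CPM and 8.01, 8.17 and 8.38 CPM (log2 fold change −0.87, SE 0.17, adjusted p = 0.592). Angptl2, a secreted angiopoietin-like protein, had 5.98, 15.4 and 18.04 CPM and 3.96, 4.26 and 1.87 CPM (log2 fold change −1.96, SE 0.39, adjusted p = 0.592), with P30 mouse 1 again the control nearest to the cKO mice. Fam129a had 30.7, 67.2 and 54.8 CPM and 18.6, 24.01 and 12.99 CPM (adjusted p = 0.592), Npsr1, the neuropeptide S receptor, had 1.59, 4.72 and 3.39 CPM and 0.54, 1.14 and 0.764 CPM (adjusted p = 0.592), and Crybg1 had 1.86, 3.35 and 3.39 CPM and 1.32, 1.09 and 1.38 CPM (adjusted p = 0.698). With Myh11, Gpnmb, Mlph and Matn3, these are the 10 named in this direction. In each of them P30 mouse 1 was the lowest control.

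Frat2 (chr19:41845972-41848132, minus strand), a GSK-3 binding protein of Wnt signaling, had 10.2, 10.3 and 9.598 CPM in the controls and 23.6, 19.3 and 16.2 CPM in the cKO mice, with tight controls and every cKO value well above them (log2 fold change 0.97, SE 0.16, adjusted p = 0.299). Without cKO mouse 4 the log2 fold change was 0.82. Rec8, a cohesin subunit of meiosis, was nearly absent from the controls (0.189, 0.182 and 0.0594 CPM, or 12, 9 and 2 counts) and was at 0.60, 4.73 and 6.33 CPM in the cKO mice (log2 fold change 4.66, SE 0.75, adjusted p = 0.299). Mouse 4 was the lowest of these, and without it the adjusted p was 0.00142. Vmn1r14, a vomeronasal receptor of a large family with near-identical copies and therefore uncertain, had 0, 0 and 1 counts in the controls and 138, 376 and 9 counts in the cKO mice (adjusted p = 0.592).

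Klkb1, plasma kallikrein, had 4.48, 4.32 and 4.61 CPM and 11.5, 7.24 and 7.02 CPM (adjusted p = 0.698), and the predicted gene Gm2115 had 18.2, 14.6 and 13.5 CPM and 24.4, 30.1 and 25.3 CPM (adjusted p = 0.698). The zinc finger gene Zfp707 had 16.1, 14.9 and 11.2 CPM and 22.9, 19.6 and 17.5 CPM (adjusted p = 0.698), and Mef2b, a MADS box factor, had 2.56, 3.09 and 3.54 CPM and 5.94, 4.32 and 4.14 CPM (adjusted p = 0.698). These 4 had adjusted p-values of 0.698, and cKO mouse 4 had the highest value in all but Gm2115. Without it the log2 fold changes of Zfp707 and Mef2b were 0.40 and 0.47, under the fold limit, so that both lost the call.

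**Figure D5:**
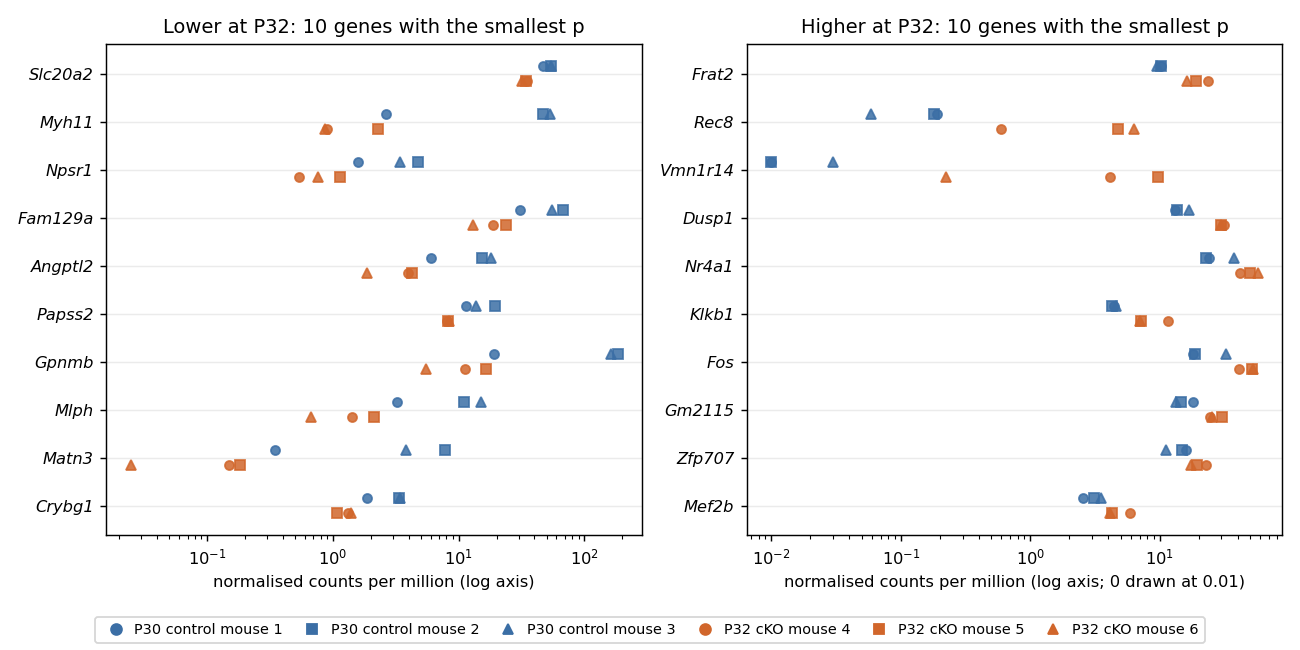
Normalised CPM on a log axis for the 10 protein-coding genes with the smallest p in each direction among those with log2 fold changes past the limit of 0.5, a mean of at least 1 CPM and no overlap between the groups (lower at P32 on the left, higher on the right), 1 point per mouse, with 0 drawn at 0.01. The missing overlap was thus a condition for showing a gene, and P30 mouse 1 (blue circle) lies nearest to the cKO mice in Myh11, Gpnmb and Matn3.

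The later cKO retinas give the levels that followed. Comparisons of P34 or P38 with P32 share the P32 libraries with the comparison above, so that their values are set side by side only. Dusp1 was at 14.6 ± 2.11 CPM (SD, n = 3) at P30, 30.5 ± 0.932 at P32, 22.5 ± 5.12 at P34 and 12.8 ± 4.05 at P38 (n = 3 each). Fos went through 23.2 ± 8.24, 48.3 ± 6.57, 34.6 ± 8.52 and 16.6 ± 6.49 CPM and Nr4a1 through 28.1 ± 8.06, 49.6 ± 8.07, 36.8 ± 6.38 and 20.7 ± 0.958 CPM at the same ages. In these 3 genes the P32 mean was the highest of the 4 and the P38 mean the lowest. Opn1sw was at 662 ± 102, 450.3 ± 28.8, 711 ± 65.9 and 687 ± 128 CPM, and Arr3 at 218 ± 28.04, 313 ± 11.7, 172 ± 43.4 and 212 ± 63.03 CPM, so that P32 had the lowest Opn1sw mean and the highest Arr3 mean of the 4 ages. Rec8 was at 0.143 ± 0.0729, 3.89 ± 2.96, 0.0787 ± 0.0601 and 2.22 ± 0.428 CPM. Gpnmb stayed near its P32 level of 11.01 ± 5.47 CPM, with 8.101 ± 1.08 at P34 and 14.4 ± 6.36 at P38, below 122 ± 89.9 CPM at P30, and Myh11 did likewise, with 34.2 ± 27.5, 1.35 ± 0.805, 1.45 ± 0.161 and 1.94 ± 0.9996 CPM. Slc20a2 was at 51.5 ± 4.297, 33.8 ± 1.81, 39.7 ± 2.99 and 43.4 ± 1.83 CPM.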

How the data were processed

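Whole retinas of 3 P30 control and 3 P32 cKO mice (1 library for each, the methods naming 3 mice per condition and a figure legend of the study fewer controls) were compared, and P34 and P38 libraries entered the fit to estimate the spread. The authors prepared stranded mRNA libraries, mapped single reads to mm10 with STAR 2.5.3a and counted them on Ensembl genes with HTSeq 0.6.1p1 (union mode, versions per the submitters' processing notes), and deposited whole-number counts per gene without normalization. These counts hold uniquely mapped reads only, so that near-identical copies are undercounted. Entries without a gene were dropped (8.67 to 12.9% of reads on no gene and 24.8 to 32.2% with no unique position in the 6 libraries). In R 4.3.3, edgeR 4.0.16 (TMM, filterByExpr, quasi-likelihood test, 1 mean per condition over 12 mice) tested 18628 of 54146 genes, with Benjamini-Hochberg adjustment. The threshold was an adjusted p of at most 0.05, or an unadjusted p of at most 0.05, each with a log2 fold change of 0.5 or more in size. An SE is the log2 fold change divided by the square root of F. limma 3.58.1 and DESeq2 1.42.0 served as alternatives, with other filters, sex as a covariate, a transcript-length offset and left-out mice. Symbols and positions came from GENCODE M21 (GRCm38), which named 99.9% of genes. The procedure was tested on simulated data.

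Named genes are, in each direction, the 10 protein-coding genes with the smallest p among those with log2 fold changes past the limit of 0.5, a mean of at least 1 CPM and no overlap between groups, the first member and the 3 with the smallest p of each list described, and genes stated as named after their values were seen, less a few that are not reported here. P-values measure the spread between these mice. The gene lists, and the comparison itself, were chosen with earlier results of these data known. Replicate libraries differed by more than sampling noise (chi-square per degree of freedom of 62.2 to 254). Which mice were littermates or processed together is not given in the sources used here.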

Additional observations from a re-analysis of the deposited data

How the results depend on the processing

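At the adjusted threshold, 0 genes were lower and 0 higher with all 6 mice. This was also so with DESeq2's size factors, a minimum of 1 CPM in 3 libraries, the P30 and P32 libraries alone, a robust spread, sex as a covariate, no limit on the fold change and the length offset, which was chosen after seeing the data. Lower and higher genes numbered 17 and 6 with no filter on low counts (33982 genes tested), 17 and 8 with DESeq2 without shrinkage, 2 and 4 with limma voom and quality weights, and 9 and 2 without both P30 mouse 1 and cKO mouse 4. The 8 of DESeq2 included the Y-linked Uty and Eif2s3y. Leaving out 1 mouse gave 0 to 19 lower genes (19 without P30 mouse 1) and 0 to 2 higher (2 without cKO mouse 4). At the unadjusted threshold, with 329 lower and 211 higher, no fold limit gave 575 and 475, no filter 655 and 406, the 1 CPM minimum 210 and 131, and limma voom 703 and 522. Sex as a covariate gave 107 higher, and leaving out both mice gave 99 higher. Leaving out 1 mouse gave 201 to 1075 lower and 83 to 736 higher. The cause of these shifts was not tested.

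Of 1242 values for 78 genes, 1170 kept their direction and side of the adjusted threshold, 60 passed it in the same direction and 12 changed sign, in 4 genes that were called in no setting. Optc changed sign with limma voom (0.22) and lay between −0.58 and 0.13 with 1 mouse left out. Prph2 did so with the P30 and P32 libraries alone (0.0051) and lay between −0.051 and 0.014. Rpe65 did so with sex as a covariate (−0.038) and lay between −0.38 and 0.54 with 1 mouse left out, and reached 0.98 over all 16 alternative fits. Crx did so with the P30 and P32 libraries alone (0.018), with sex as a covariate (0.011) and without both mice (0.049), and lay between −0.066 and 0.041. No paired analysis was possible because the groups share no replicate numbers. Depth limits low values, with 3 counts worth 0.0499 CPM in the deepest and 0.0938 CPM in the shallowest of the 6 libraries.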

Other observations

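Gene lists of other cell types and responses were counted with the same unadjusted threshold, which 1.77% of all genes passed as lower and 1.13% as higher. None was called in either direction for amacrine cells (11 tested), retinal ganglion cells (11), horizontal cells (7), Müller glia (13), microglia and complement (13), PR ribbon synapses (17), the circadian clock (18), heat shock (10), cholesterol synthesis (22) or estrogen receptor genes and targets (8). Their median log2 fold changes lay between −0.23 (ribbon synapse) and 0.13 (estrogen receptor genes and targets). Without cKO mouse 4 these 2 were −0.07 and 0.02, and that of heat shock genes went from 0.10 to −0.10. Without that mouse 1 microglia gene was called lower, and without P30 mouse 1, 1 microglia gene and 1 ribbon synapse gene were. A single gene was called in each of 3 lists, among 7 pericyte genes (Notch3, lower), 14 apoptosis genes (Cdkn1a, lower) and 10 corneal and conjunctival genes (Krt15, higher), all 3 named after their values were seen, and none among 10 endothelial and 7 mitochondrially encoded genes. The calls of Notch3 and Krt15 were lost without cKO mouse 4, where 1 endothelial gene was lower, and that of Cdkn1a was lost without P30 mouse 1, where the corneal list held 1 lower and 2 higher genes. Of all genes tested, 257 of 18991 were lower without cKO mouse 4. In the fit without P30 mouse 1, 583 of 19052 were lower and 294 higher.

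Of 12 interferon response genes, 11 had a positive fold change and none was called (median 0.41). The median was 0.59 without cKO mouse 4, where 1 was called, Irf7, named after its values were seen. It was 0.15 without cKO mouse 5, 0.71 without P30 mouse 3 and 1.05 with limma voom. Isg15, a ubiquitin-like modifier, had 1.199, 1.68 and 1.78 CPM in P30 mice 1, 2 and 3 and 2.37, 3.83 and 2.02 CPM in cKO mice 4, 5 and 6 (adjusted p = 0.698), and cKO mouse 5 was the highest. Ifit1 had 1.32, 1.94 and 3.27 CPM and 1.71, 4.96 and 2.61 CPM, and Ifi27 had 10.5, 12.4 and 18.3 CPM and 16.8, 27.3 and 13.6 CPM.

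Genes of skeletal muscle, blood and lens differed between single libraries. The 10 skeletal muscle genes summed to 65.3 CPM in P30 mouse 2 and to between 6.60 and 11.6 CPM in the other 5 libraries, and the median log2 fold change of −2.66 became 0.44 without P30 mouse 2. None of the 10 was called, and without P30 mouse 1, 2 were lower, against 583 of all 19052 genes tested in that fit. Hemoglobin and related genes of erythrocytes summed to 167 CPM in cKO mouse 4 and to between 26.8 and 87.1 CPM in the others, and the median log2 fold change of these 5 genes was 0.11 with mouse 4 and −1.48 without it, where 5 of 5 were called lower, against 257 of all 18991 genes tested in that fit. Lens genes gave no call among 22 (median 0.59) and 1 lower without P30 mouse 1, and their median rested on single libraries, at 0.01 without cKO mouse 4, 0.24 without cKO mouse 5, 1.16 without cKO mouse 6, 0.21 without P30 mouse 1, 0.02 without P30 mouse 2, 2.66 without P30 mouse 3, −0.36 without both P30 mouse 1 and cKO mouse 4 and 2.88 with limma voom.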
